A study of Mus musculus with 6 samples.

Results

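The auxiliary subunits of voltage-gated calcium channels were followed in the cerebellum of mice carrying daDREAM and of wild-type mice. They were taken as all probe sets that the platform annotation assigns to exactly 1 gene symbol out of Cacna2d1, Cacna2d2, Cacna2d3, Cacnb1, Cacnb2, Cacnb3 and Cacnb4. The rule gave 18 of the 45037 probe sets tested, in 6 of the 7 genes. Cacnb3 had no probe set under this symbol alone and was not analysed here. The arrays were Affymetrix GeneChip Mouse Genome 430 2.0, 3 from daDREAM transgenic and 3 from wild-type cerebellum, each an independent biological replicate of frozen dissected tissue. DREAM is the product of Kcnip3, a neuronal calcium sensor that can sit on DNA and repress transcription until calcium releases it; daDREAM is a dominant active mutant, which calcium does not release. The sources used here do not give the promoter that drives the transgene, nor the age, sex or strain of the mice, nor whether an array holds tissue of 1 animal or of several.

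A voltage-gated calcium channel is built around a pore-forming subunit that senses voltage and passes calcium. The beta subunits are cytoplasmic proteins that bind the pore subunit, help it reach the membrane and tune its opening. The alpha2delta subunits are extracellular, membrane-anchored proteins that raise the number of channels at the surface and at presynaptic terminals. Both families matter to this tissue: loss of Cacnb4 underlies the ataxia of the lethargic mouse, and loss of Cacna2d2 that of the ducky mouse, whose Purkinje cells are abnormal.

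Values are RMA expression levels on a log2 scale, as the authors deposited them, and each difference is the daDREAM mean less the wild-type mean, with its 95% interval from limma. The levels of different probe sets cannot be set against each other. Some markers of the tissue varied little between arrays and others more. Lhx1, of Purkinje cells, ran from 7.71 to 8.54 in daDREAM and from 7.87 to 8.48 in wild type. Kcnd2, of granule cells, ran from 9.94 to 10.71 in daDREAM and from 10.32 to 10.54 in wild type. The steadier Pcp2 and Gabra6 lie near the top of the scale. Pcp2, of Purkinje cells, stood between 12.43 and 12.47 in daDREAM and between 12.38 and 12.43 in wild type, and Gabra6, of granule cells, between 11.94 and 12.08 in daDREAM and between 12.03 and 12.07 in wild type. The 2 probe sets of Kcnip3 differed by 0.10 (95% interval -0.27 to 0.46) and 0.11 (interval -0.21 to 0.42). These do not check the labels, since it is unknown if their probes match the transgene.

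No auxiliary subunit passed the test. Of the 18 probe sets 0 had a limma adjusted p under 0.05, beside 0% of the 45037 probe sets tested, and all 18 had an adjusted p of 0.998. At an unadjusted p under 0.05 there were also 0 of 18, beside 1.81% of all. Their median difference was -0.04, with 7 higher and 11 lower in daDREAM, where the median over all probe sets was 0.01 and 51.8% were higher. All 18 intervals held 0, and 17 lay within 1 log2 unit, a 2-fold change, on either side. The exception was Cacnb4 1452089_at, whose interval reached -1.04. The genotypes did not overlap at 3 of 18 probe sets, beside 6.01% of all. All 3 were higher in daDREAM, beside 3.75% of all, and 0 of 18 were lower without overlap, beside 2.26%. Each of the 3 had a mean under 5 over the 6 arrays, at the dim end of the scale.

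**Figure D1:**
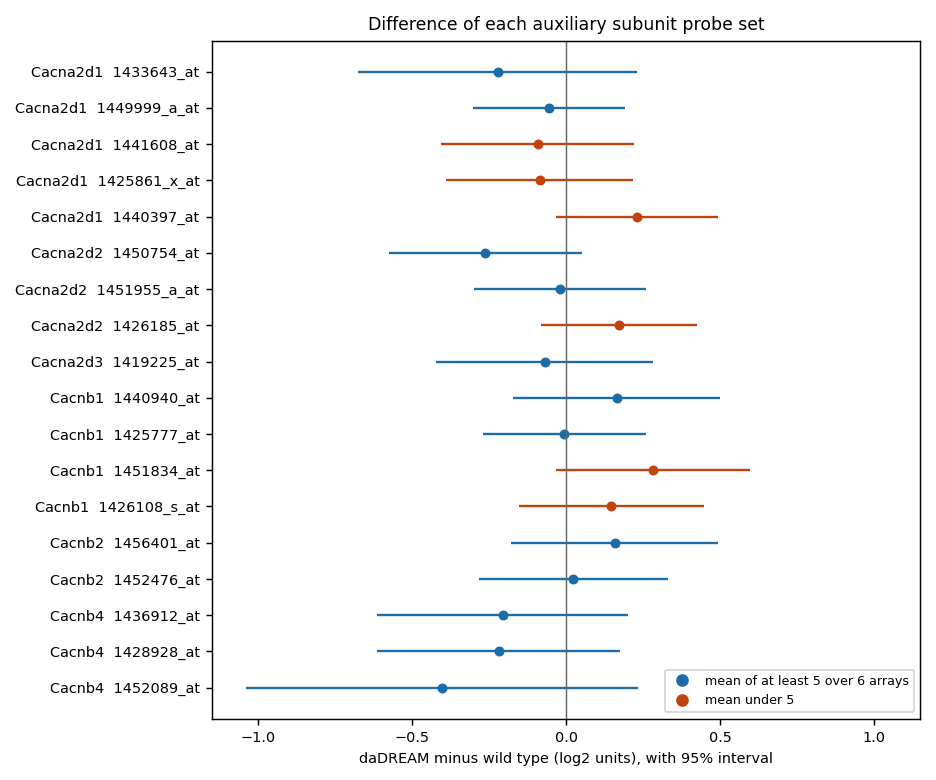
Difference of each of the 18 auxiliary subunit probe sets (points, daDREAM minus wild type, log2 units) with its 95% interval from limma (lines), coloured by whether its mean over the 6 arrays reached 5. Every interval crosses 0, and the estimates run from -0.40 for Cacnb4 1452089_at to 0.28 for Cacnb1 1451834_at.

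Among the alpha2delta genes, Cacna2d1 encodes a subunit that binds the drug gabapentin and is a receptor for thrombospondins. Its brightest probe set, 1433643_at, stood at 8.45, 8.0 and 7.73 in daDREAM replicates 1, 2 and 3, against 8.31, 8.46 and 8.08 in wild-type replicates 1, 2 and 3. The genotypes overlapped, with daDREAM replicate 1 beside the highest wild-type array and the other 2 daDREAM arrays under all 3 wild-type arrays. The difference was -0.22 (interval -0.68 to 0.23, limma unadjusted p = 0.289). A second probe set, 1449999_a_at, which covers several transcripts of the gene, was much steadier, at 6.20, 6.22 and 6.18 in daDREAM and 6.24, 6.22 and 6.31 in wild type. Its difference was -0.06 (interval -0.30 to 0.19), or 0.810-fold to 1.14-fold. The other 3 probe sets of the gene were dim, between 2.92 and 3.76 on every array. One of them, 1440397_at, did not overlap, at 3.17, 3.28 and 3.08 in daDREAM and 2.93, 2.99 and 2.92 in wild type, a difference of 0.23 of opposite sign to the other 4.

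Cacna2d2, the subunit lost in the ducky mouse, had the largest estimate among the brightest probe sets of the alpha2delta genes. Its probe set 1450754_at stood at 8.77, 8.53 and 8.48 in daDREAM, against 8.88, 8.99 and 8.70 in wild type. The highest daDREAM array lay above the lowest wild-type array, and the other 2 daDREAM arrays were under all 3 of wild type. The mean was 8.59 ± 0.16 in daDREAM and 8.86 ± 0.15 in wild type (SD, n = 3 each), a difference of -0.26 or 0.833-fold (interval -0.58 to 0.05, limma unadjusted p = 0.0891). After quantile normalization was applied once more, which equalises the spread of the arrays, the genotypes did not overlap at this probe set. It then stood at 8.64, 8.57 and 8.64 in daDREAM and 8.84, 8.90 and 8.75 in wild type, a difference of -0.215 that did not pass (limma adjusted p = 0.989). Of the 18 probe sets 2 were free of overlap in that setting, beside 8.29% of all. The 2 further probe sets of Cacna2d2 differed by -0.02 (1451955_a_at, between 5.0 and 5.27 on all arrays) and by 0.17 (1426185_at, between 3.31 and 3.57).

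Cacna2d3, a further alpha2delta subunit needed for hearing and for pain sensing, was measured by 1 probe set, 1419225_at. It stood at 8.01, 7.73 and 7.59 in daDREAM, against 7.84, 8.02 and 7.68 in wild type. The arrays of the 2 genotypes interleaved, and the difference was -0.07 (interval -0.42 to 0.28).

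Among the beta genes, Cacnb4, the subunit lost in the lethargic mouse, was measured by 3 probe sets. Probe set 1436912_at stood at 10.59, 10.09 and 10.0 in daDREAM, against 10.52, 10.52 and 10.26 in wild type. Probe set 1428928_at ran alongside, at 9.92, 9.44 and 9.31 in daDREAM and 9.80, 9.85 and 9.68 in wild type. At both, daDREAM replicate 1 was the highest of all 6 arrays and daDREAM replicates 2 and 3 were the lowest. The differences were -0.21 (interval -0.61 to 0.20, limma unadjusted p = 0.277) and -0.22 (interval -0.61 to 0.17, limma unadjusted p = 0.234). The daDREAM arrays spanned 0.59 and 0.61 at these probe sets, and the wild-type arrays 0.26 and 0.17.

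The third probe set of Cacnb4, 1452089_at, did not follow the other two. It stood at 7.90, 7.79 and 7.61 in daDREAM, against 7.57, 8.14 and 8.80 in wild type. Here the wild-type arrays spread over 1.23 log2 units and enclosed all 3 daDREAM arrays, and wild-type replicate 3, the lowest of its genotype at the other probe sets, was the highest. The difference of -0.40 (interval -1.04 to 0.23) was the largest in size among the 18, and was -0.09 without wild-type replicate 3 and -0.70 without wild-type replicate 1. A test of whether the probe sets of 1 gene differed in their genotype difference covered 23 pairs within the 5 genes with several probe sets. In 3 pairs the exact permutation p was 0.1, the smallest that 3 arrays against 3 allow, and the smallest adjusted p over the 23 pairs was 0.657. The 3 pairs of Cacnb4 had exact permutation p from 0.8 to 0.9.

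**Figure D2:**
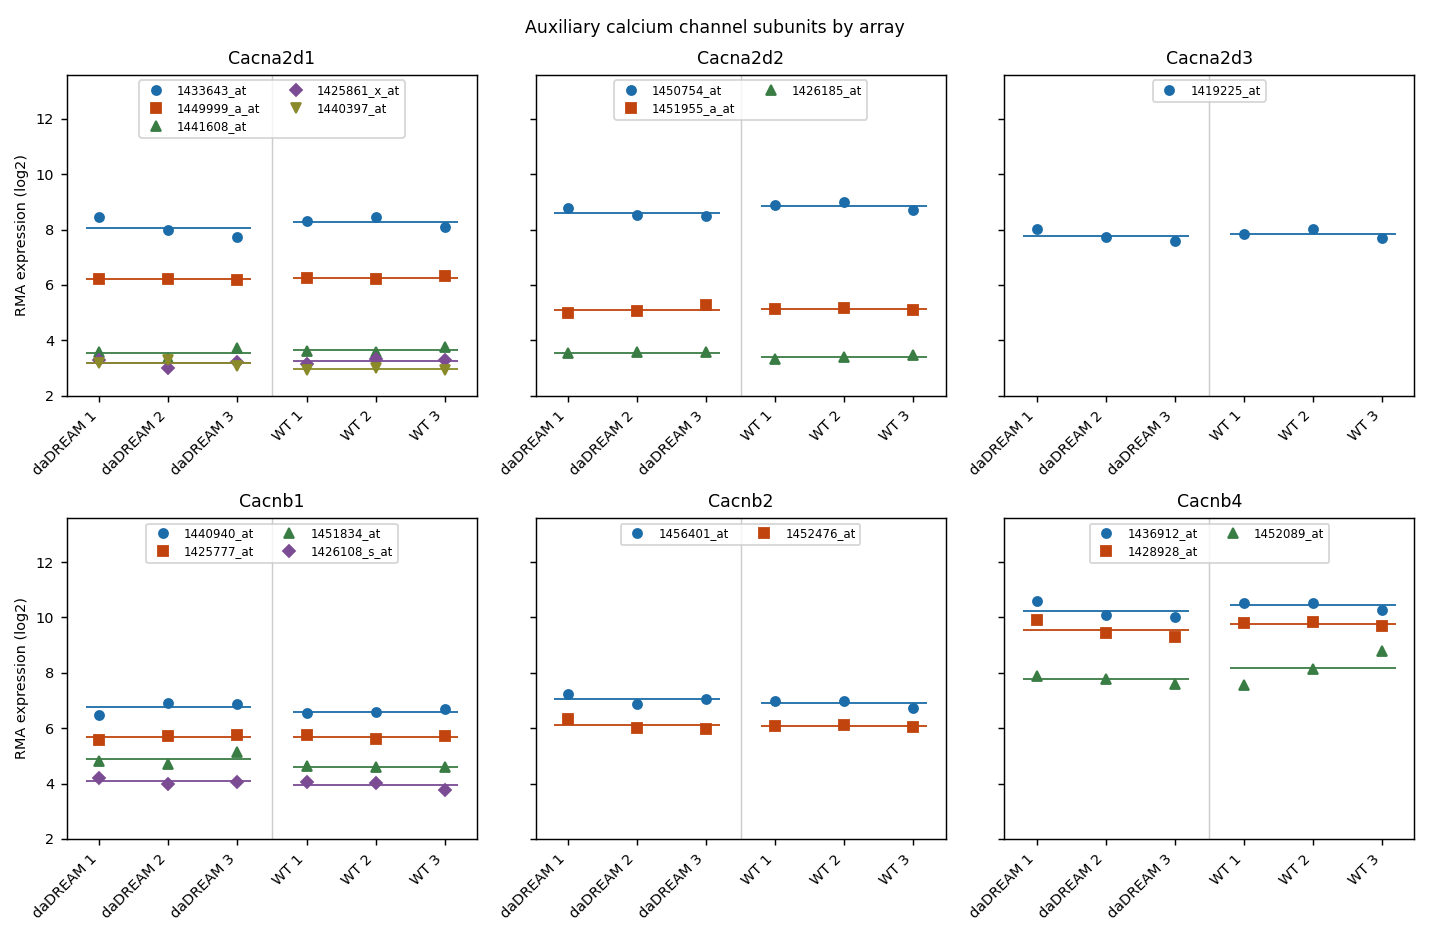
RMA expression (log2, vertical axis) of the 18 probe sets on each of the 6 arrays, 1 panel per gene, with daDREAM left of wild type (WT); short lines are the means of 3 arrays. The daDREAM and wild-type means lie close together in every panel, and Cacnb4 1452089_at shows the widest spread, from 7.57 to 8.80 within wild type.

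Cacnb1, the beta subunit of skeletal muscle channels that neurons also express, had 3 of 4 probe sets higher in daDREAM, beside 51.8% of all. Of the 3, 1451834_at and 1426108_s_at were dim, with means of 4.75 and 4.01 over the 6 arrays. Probe set 1440940_at stood at 6.49, 6.92 and 6.88 in daDREAM, against 6.55, 6.57 and 6.68 in wild type. Here daDREAM replicate 1 was the lowest of the 6 arrays and the other 2 daDREAM arrays were the highest, the reverse of Cacnb4. The difference was 0.16 (interval -0.17 to 0.50). Probe set 1451834_at did not overlap, at 4.82, 4.72 and 5.13 in daDREAM and 4.64, 4.59 and 4.60 in wild type, and its difference of 0.28 (interval -0.03 to 0.59, limma unadjusted p = 0.0746) had the smallest unadjusted p of the 18. That difference was 0.16 without daDREAM replicate 3 and 0.365 without daDREAM replicate 2. At 1425777_at the arrays stood between 5.59 and 5.74 in daDREAM and between 5.61 and 5.74 in wild type, a difference of -0.01 (interval -0.27 to 0.26). The last probe set, 1426108_s_at, whose probes may match several transcripts, differed by 0.15 at a level of 3.75 to 4.20, and by 0.087 without daDREAM replicate 1 and 0.055 without wild-type replicate 3.

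Cacnb2, a beta subunit prominent in heart that is also found in brain, had 2 probe sets. The brighter, 1456401_at, stood at 7.25, 6.86 and 7.05 in daDREAM, against 6.97, 7.0 and 6.72 in wild type. The genotypes overlapped, and the difference was 0.16 (interval -0.18 to 0.49). Its size moved with the array left out, from 0.058 without daDREAM replicate 1 to 0.253 without daDREAM replicate 2, and its sign did not change. Without wild-type replicate 3 the difference was 0.068. The other, 1452476_at, stood at 6.33, 6.02 and 5.97 in daDREAM and 6.09, 6.13 and 6.03 in wild type, a difference of 0.02 (interval -0.28 to 0.33). When the probe sets of each gene were averaged in place of taking the brightest, the differences of the 6 genes ran from -0.28 for Cacnb4 to 0.15 for Cacnb1, with Cacna2d1 at -0.05 and Cacna2d2 at -0.04. No adjusted p was computed for these averages.

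DREAM binds DNA at sites with a GTCA core, so the 250 bases before each RefSeq transcript start of the 7 genes (GRCm38.p6) were searched for GTCA on both strands. Of 12 such windows 7 held it, in 5 of the 7 genes, beside 80.2% of the 32851 windows of this length in the table. The windows of Cacna2d3 and Cacnb3 held none, and those of the 2 starts of Cacnb1 held 0 and 1. Bases after the start were not searched, so a window without a match does not show that the gene lacks one. TGACG, the half-site of the CREB factors, which shares TGAC with the reverse complement of GTCA, was in 2 of 12 windows, 1 each of Cacna2d1 and Cacnb2, beside 17.8% of all windows. A match is a string of letters and was not tied to binding here. The windows below belong to the 3 genes whose brightest probe sets had the largest negative differences and, for contrast, to Cacnb2; for Cacnb2 and Cacnb4 the start with the most matches is given. They run 5′ to 3′ on the strand of the gene, with every GTCA or TGAC in capitals.
Cacna2d1, chr5:15934441-15934690, plus strand: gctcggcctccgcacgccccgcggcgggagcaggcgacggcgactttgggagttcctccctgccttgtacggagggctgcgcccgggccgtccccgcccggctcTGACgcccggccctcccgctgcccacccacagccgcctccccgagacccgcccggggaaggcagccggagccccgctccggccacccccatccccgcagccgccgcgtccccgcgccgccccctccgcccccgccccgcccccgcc
Cacna2d2, chr9:107399630-107399879, plus strand: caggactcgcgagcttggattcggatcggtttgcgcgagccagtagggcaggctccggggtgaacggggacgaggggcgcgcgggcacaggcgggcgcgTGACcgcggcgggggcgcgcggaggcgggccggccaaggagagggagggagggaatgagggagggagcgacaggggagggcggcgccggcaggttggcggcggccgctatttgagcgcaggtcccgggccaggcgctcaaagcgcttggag
Cacnb2, chr2:14823842-14824091, plus strand: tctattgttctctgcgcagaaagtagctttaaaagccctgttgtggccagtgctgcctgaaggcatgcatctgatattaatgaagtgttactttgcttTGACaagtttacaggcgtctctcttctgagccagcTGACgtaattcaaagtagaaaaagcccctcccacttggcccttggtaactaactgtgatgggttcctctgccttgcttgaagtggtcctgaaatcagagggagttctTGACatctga
Cacnb4, chr2:52558612-52558861, minus strand: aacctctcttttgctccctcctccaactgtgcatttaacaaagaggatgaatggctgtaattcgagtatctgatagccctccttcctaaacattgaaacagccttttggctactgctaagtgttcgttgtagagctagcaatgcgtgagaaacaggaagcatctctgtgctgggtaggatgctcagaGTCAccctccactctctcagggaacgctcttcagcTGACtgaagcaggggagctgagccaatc
The windows of Cacna2d1 and Cacna2d2 were rich in G and C, at 82.4% and 74.4%, and held 1 match each, 146 and 151 bases before the start. The windows shown for Cacnb2 and Cacnb4 were at 46.0% and 48.8% and held 3 and 2 matches. Other starts of these genes held fewer: 1 at the other start of Cacnb2, and 0 and 1 at the other 2 starts of Cacnb4.

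The brighter subunits shared an order among the 3 daDREAM arrays. All 6 probe sets that averaged 7 or more (3 of Cacnb4 and the brightest of each alpha2delta gene) were highest in daDREAM replicate 1 and lowest in replicate 3 among the daDREAM arrays, and so were 51.1% of all 11639 probe sets as bright. At 5 of the 6, daDREAM replicate 3 was also under every wild-type array, beside 42.0% of all. These counts were made after the values had been seen and describe the arrays. The interquartile range over all probe sets was 3.49, 3.15 and 2.97 in daDREAM replicates 1, 2 and 3, and 3.27, 3.38 and 3.10 in wild-type replicates 1, 2 and 3. With quantile normalization applied once more, 3 of the 6 showed this order, beside 27.2% of all.

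**Figure D3:**
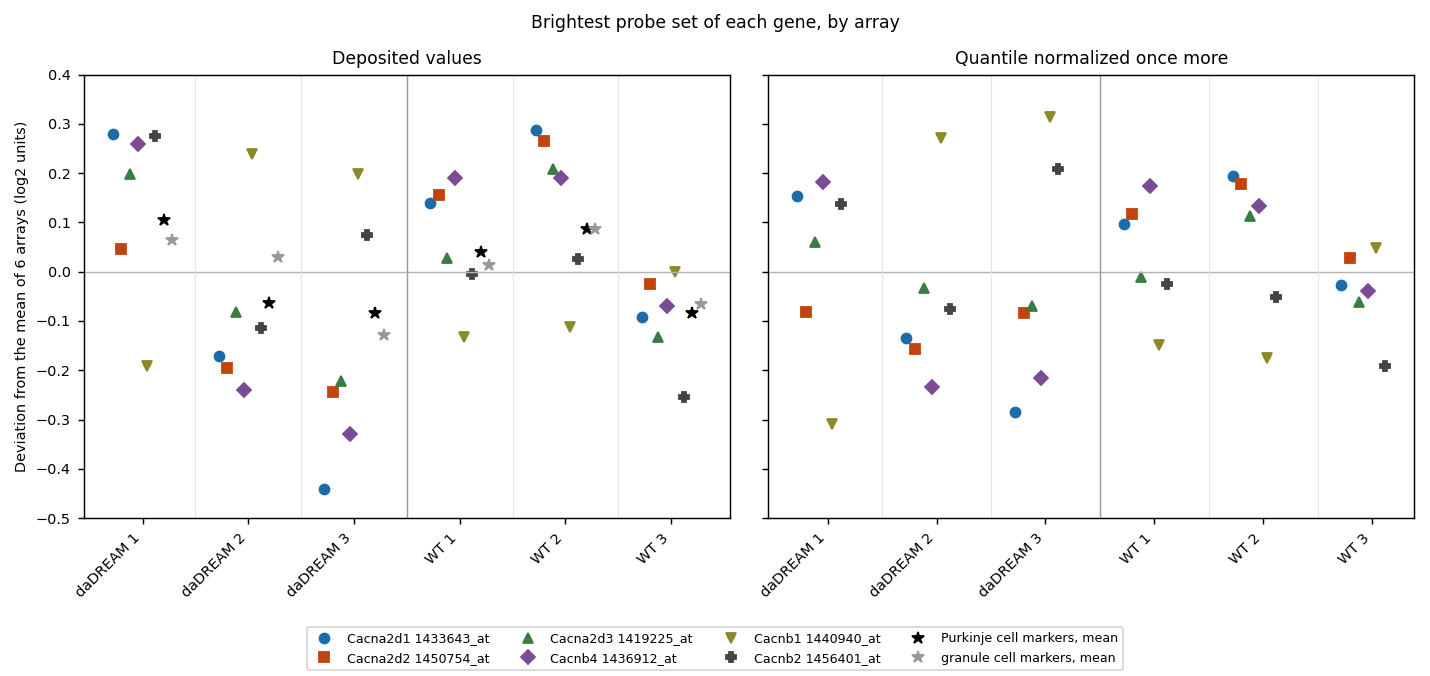
Deviation from the mean over the 6 arrays (log2 units) for each gene's brightest probe set, for the deposited values (left) and after quantile normalization was applied once more (right), with daDREAM arrays left of wild type (WT) in each panel; stars are the mean levels of the Purkinje and granule cell marker lists. In the deposited values Cacna2d1, Cacna2d2, Cacna2d3 and Cacnb4 lie above 0 in daDREAM replicate 1 and below 0 in replicates 2 and 3, and Cacnb1 lies on the opposite side.

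The size of these differences turned on which array was left out. Without daDREAM replicate 1, Cacnb4 differed by -0.39 at 1436912_at and by -0.40 at 1428928_at, Cacna2d1 by -0.42 at 1433643_at, Cacna2d2 by -0.35 at 1450754_at and Cacnb1 by 0.30 at 1440940_at. These 5 of the 18 had a limma unadjusted p under 0.05, beside 16.1% of all probe sets, and none passed after adjustment (smallest limma adjusted p among them 0.223). Without daDREAM replicate 3 the differences were smaller, at -0.093 and -0.097 for the same 2 probe sets of Cacnb4, -0.058 for Cacna2d1, -0.21 for Cacna2d2 and 0.105 for Cacnb1. Cacnb1 was at 0.085 without daDREAM replicate 2, and Cacna2d1 at -0.135 without wild-type replicate 2. The hybridization controls, transcripts spiked in at set concentrations and read by 18 probe sets, averaged 9.47, 10.14 and 10.47 in daDREAM replicates 1, 2 and 3, and 8.99, 8.99 and 9.48 in wild-type replicates 1, 2 and 3 (exact permutation p = 0.2). With this average as a covariate, a setting added once the data had been seen, the differences were 0.31 and 0.26 at the same 2 probe sets of Cacnb4, 0.38 for Cacna2d1, 0.03 for Cacna2d2 and -0.17 for Cacnb1, each of opposite sign to the value without it. In that setting 3 of the 18 had a limma unadjusted p under 0.05, beside 23.2% of all.

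The genes whose brightest probe sets tracked the subunits most closely over the 6 arrays, by Pearson's r among 6931 or 6932 genes averaging 7 or more, are given as a description. They were Mapk8 and Shoc2 for Cacna2d1 (r = 0.999 each), Ttc1 and Cct4 for Cacna2d2 (r = 0.997 and 0.996), and Tubg1 and Ss18 for Cacna2d3 (r = 0.995 and 0.994). For the beta genes they were Cdc40 and Nucks1 with Cacnb4 (r = 0.998 each), Uqcr10 and Mafk with Cacnb1 (r = 0.995 and 0.989), and Mms19 and Rfk with Cacnb2 (r = 0.994 and 0.983). The closeness was widely shared: r was over 0.95 in 692 genes for Cacna2d1, 557 for Cacnb4, 243 for Cacna2d3 and 143 for Cacna2d2, and in 26 for Cacnb1 and 13 for Cacnb2. Negative r was not counted. The probe sets of Cacnb1 and Cacnb2 averaged 6.68 and 6.975, under the 7 asked of the genes compared, so their lower counts do not show a more particular likeness. The points share 6 arrays and 1 normalization.

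Marker lists of cerebellar cell types, of choroid plexus, of forebrain and of brainstem were measured beside the subunits. In whole cerebellum, fewer cells of a type and less RNA per cell cannot be told apart. The mean level of 12 Purkinje cell markers ran from 10.76 to 10.95 in daDREAM and from 10.77 to 10.93 in wild type, with 4 higher and 8 lower, and their median difference was -0.02 (Lhx5 at 0.24 and Lhx1 at -0.20 were the extremes). That of 15 granule cell markers ran from 10.30 to 10.50 in daDREAM and from 10.37 to 10.52 in wild type, with a median of -0.05 (Barhl1 at 0.28, Kcnd2 at -0.18). Both lists were at or near their highest in daDREAM replicate 1 and wild-type replicate 2, as Cacna2d1 and Cacna2d3 were. These arrays also had the widest interquartile ranges over all probe sets, 3.49 and 3.38. Cacna2d2 1450754_at was highest in wild-type replicate 2, but its 8.77 in daDREAM replicate 1 was under the 8.88 of wild-type replicate 1. The part of both marker lists in the subunit values was not tested. The remaining lists had medians of -0.13 for 9 interneuron markers (Grm2 at 0.17, Ptprk at -0.26), -0.03 for 9 of Bergmann glia and astrocytes (Slc1a2 at 0.11, Gja1 at -0.31), -0.03 for 9 of oligodendrocytes (Mag at 0.10, Ugt8a at -0.35) and -0.01 for 7 of endothelium (Cdh5 at 0.31, Flt1 at -0.35). The 9 microglial markers had a median of 0.17 (C1qc at 0.32, Tmem119 lowest at 0), the 6 forebrain markers of 0.03 (Rgs9 at 0.24, Emx1 at -0.08) and the 9 brainstem markers of -0.10 (Hoxb3 at 0.20, Chat at -0.37). The choroid plexus list was at 0.43 (Sostdc1 at 1.07, Steap1 at -0.18), with 9 of 10 higher and mean levels from 6.23 to 6.51 in daDREAM and from 5.86 to 6.12 in wild type; 5 of its 10 had a limma unadjusted p under 0.05, beside 1.81% of all. Some of its members were dim as well, and Sostdc1 averaged 5.88 in daDREAM and 4.80 in wild type. The part of the choroid plexus list in the subunit values was not tested. No member of these lists passed over all probe sets.

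The pore subunits that the auxiliary subunits serve did not pass either. With the brightest probe set per gene, 0 of 9 had an adjusted p under 0.05 and 1 an unadjusted p under it, 6 were higher and 3 lower, and the median was 0.04. Cacna1h, a T-type channel that works without obligate auxiliary subunits, led at 0.38 (interval 0.09 to 0.68, limma unadjusted p = 0.0170). It stood at 5.05, 4.86 and 4.92 in daDREAM, against 4.54, 4.42 and 4.72 in wild type, without overlap. This probe set, 1422710_a_at, was dim, with a mean of 4.75 over the 6 arrays. Another of the gene, 1427607_at, with a mean of 3.48, differed by 0.19 (interval -0.25 to 0.64). Cacna1a, the P/Q-type pore subunit of Purkinje and granule cells, differed by 0.06 at 1430408_at and by 0.24 at 1450510_a_at, which were equally bright, and by 0.46 and 0.52 at 1444455_at and 1459996_at (limma unadjusted p = 0.0431 and 0.0227). Of these, 1444455_at was dim as well, with a mean of 4.86 over the 6 arrays. Cacna1b, the N-type subunit, was the lowest at -0.17 for 1439612_at, although another of its probe sets, 1425812_a_at, differed by 0.41. Over all 19 pore subunit probe sets 4 had a limma unadjusted p under 0.05, beside 1.81% of all in either direction, and 0 passed after adjustment. All 4 were higher in daDREAM, and 1444455_at and 1459996_at of Cacna1a were among them. Over the whole array 817 probe sets had an unadjusted p under 0.05, and 318 of those were lower in daDREAM.

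**Figure D4:**
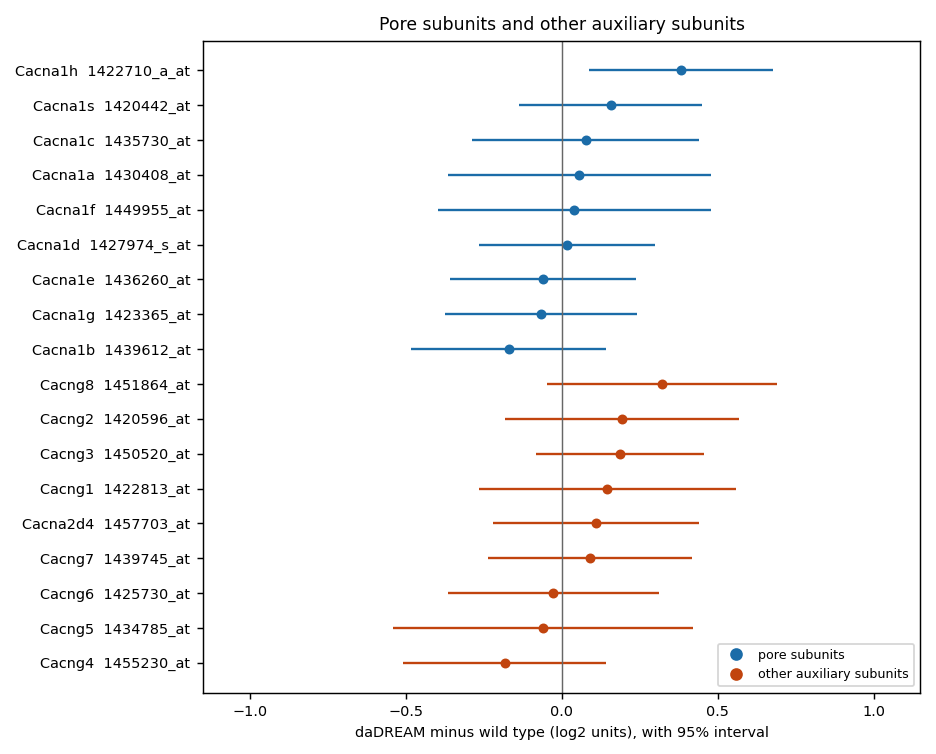
Difference of the brightest probe set of 9 pore subunit genes and of 9 other auxiliary genes (points, daDREAM minus wild type, log2 units) with 95% intervals from limma (lines). Cacna1h, at a probe set with a mean of 4.75 over the 6 arrays, is the gene whose interval excludes 0, from 0.09 to 0.68 before any adjustment. Every other interval crosses 0.

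Further auxiliary genes and partners differed by -0.20 to 0.32 at their brightest probe sets. Cacna2d4 and the gamma family, most of whose members are AMPA receptor partners, had 6 of 9 higher and a median of 0.11, led by Cacng8 at 0.32 and ending with Cacng4 at -0.18. Cacng2, the stargazin gene whose loss causes ataxia in mice, differed by 0.19 (interval -0.18 to 0.57). Proteins that hold channels at release sites or regulate their traffic had 12 of 25 higher, 12 lower and a median of 0.00, from Stac2, an adaptor of L-type channels, at 0.25 to Rem2, a small GTPase that binds beta subunits, at -0.20. Ligands and partners of alpha2delta had 3 of 8 higher and a median of -0.02, from the thrombospondin Thbs3 at 0.15 to the neurexin Nrxn3 at -0.12. None of these genes passed after adjustment.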

How the data were processed

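Cerebellar RNA of 3 daDREAM and 3 wild-type samples was hybridised, 1 array to a sample. The authors deposited 1 log2 value for each probe set on each array, computed with RMA per the submitters' processing notes, which name no version. RMA corrects background, equalises probe intensity distributions and summarises the probes of a set. Of 45101 probe sets, 64 controls were left out and 45037 tested. The platform annotation names 1 gene for 34945 of them, several for 932 and none for 9160.

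A linear model was fitted to each probe set with limma 3.58.1 under R 4.3.3, its variances moderated by eBayes, the test 2-sided and p-values adjusted over the whole array by Benjamini and Hochberg's method, with a threshold of 0.05. Simulated arrays were used to test the fit. In lists, a gene was represented by its brightest probe set. Exact permutation tests were 2-sided and cannot go below 0.1. Precision is set by having 3 arrays a genotype: differences had a median SE of 0.14 over the 18 subunit probe sets and 0.15 over all.

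The members, the lists and the tests were chosen with earlier results of these data known. Every probe set of the 7 genes and of Kcnip3 was named, the highest and lowest gene of each list, any pore or other auxiliary subunit, and the 2 genes most like each subunit. Pcp2 and Gabra6 were named after their values were seen. The alternatives were a trended, robust prior, median centring, renewed quantile normalization, a minimum mean of 5, the replicate block and each array left out. A covariate for the hybridization controls was added after seeing the data. Promoter windows came from RefSeq (GRCm38.p6), where all 7 symbols matched.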

Additional observations from a re-analysis of the deposited data

How the results depend on the processing

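No subunit probe set passed under any of the 12 alternatives (smallest limma adjusted p 0.186, smallest unadjusted p = 0.0110), and over the whole array 0 passed in each, with 324 (without wild-type replicate 1) to 10471 (hybridization control covariate) at an unadjusted p under 0.05, against 817. With a minimum mean of 5, 3 of the 12 probe sets left were higher in daDREAM, against 7 of 18, because the 6 dim ones are removed. With a covariate for the hybridization controls, added after seeing the data, 11 were higher and the median was 0.11; the differences that changed sign were 0.38 for Cacna2d1 1433643_at, 0.034 for Cacna2d2 1450754_at, 0.31 for Cacna2d3 1419225_at, -0.17 for Cacnb1 1440940_at, and 0.31 and 0.26 for Cacnb4 1436912_at and 1428928_at. Under median centring Cacnb2 1452476_at was at -0.0033.

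Leaving out 1 array, 7 to 10 of 18 were higher and the median ran from -0.07 to 0.006. Signs changed for 6 probe sets: Cacna2d1 1441608_at (-0.18 to 0.010) and 1425861_x_at (-0.15 to 0.0033), Cacna2d2 1451955_a_at (-0.10 to 0.033), Cacna2d3 1419225_at (-0.19 to 0.023), Cacnb1 1425777_at (-0.048 to 0.042) and Cacnb2 1452476_at (-0.088 to 0.092). The cause was not tested. Over every probe set of a list in place of the brightest of each gene, the interneuron markers had a median of 0.05 and the alpha2delta ligands and partners of 0.03, each of opposite sign, and 0 passed in any list.

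The replicate numbers were not taken to pair the arrays: deviations of arrays with the same number correlated at 0.119, -0.281 and 0.323, and daDREAM 1 correlated best with wild type 2 (0.488). With the replicate block 0 probe sets passed (1093 at an unadjusted p under 0.05), and Cacnb4 1436912_at, at -0.21, had a limma adjusted p of 0.996. Arrays give no detection call here, so the 6 dim probe sets cannot be told from background.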
